A study of Mus musculus with 8 samples.

Results

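The genes described here are 10 components of cyclic GMP signalling around the kinase gene Prkg2: the kinases Prkg1 and Prkg2, the soluble guanylyl cyclase subunits Gucy1a2, Gucy1a3 and Gucy1b3, the receptor cyclases Npr1 and Npr2, the nitric oxide synthase Nos1, and the phosphodiesterases Pde5a and Pde9a. They were taken by symbol from a table of 41128 genes, and all 10 were found and passed the expression filter. The table holds read counts from polyadenylated RNA of the corpus callosum, the main white matter tract between the hemispheres. All 8 libraries came from PLP-150Q mice, so both groups carried that transgene: the strain is a Huntington's disease model in which the proteolipid protein (PLP) promoter drives a mutant huntingtin fragment in oligodendrocytes. Treatment began at 3 months of age and lasted 2 months, so that the tissue was taken at 5 months. The 4 LAQ libraries (numbered 5 to 8) came from mice given LAQ at 5 mg/kg, and the 4 control libraries (1 to 4) from mice given purified water as vehicle. LAQ is taken here as the abbreviation of laquinimod, a small molecule given by mouth that modulates immune cells. The design text counts 4 treated and 4 control mice, so each library was taken as 1 mouse. No group without the transgene was analysed here.

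Cyclic GMP is made by guanylyl cyclases and acts mainly through cGMP-dependent kinases, ion channels and phosphodiesterases. Nitric oxide, made in neurons by the synthase that Nos1 encodes, activates the soluble cyclase, a heterodimer of an alpha subunit (Gucy1a3 or Gucy1a2) and the beta subunit Gucy1b3, while natriuretic peptides activate the membrane cyclases Npr1 and Npr2. Prkg1 encodes a mostly cytosolic kinase known from smooth muscle and some neurons, Prkg2 a membrane-anchored kinase known in the brain from thalamic neurons among others, and the enzymes of Pde5a and Pde9a hydrolyse cGMP.

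The libraries held 8790749 to 12021429 counted reads, of which 3102 to 4992 fell on the 10 genes. LAQ 7 stood apart from the other treated libraries: the chi-square per degree of freedom between its counts and theirs was 16.1 to 25.6, against 7.87 to 8.93 among LAQ 5, 6 and 8 and 4.24 to 6.07 among the controls. Fits without LAQ 7 are therefore given as well. LAQ 7 is not thereby shown to be an outlier. Dixon's outlier test, run on 28 groups of 4 libraries, flagged 0. With 4 libraries per group that test can flag only a very isolated value, so it cannot decide whether LAQ 7 is an outlier. LAQ 5 lay far from the controls on the other side in striatal markers, at 544 CPM against 1501 to 1973 CPM. Leaving out LAQ 7 was also the only omission of 1 library that gave genes with an adjusted edgeR p under 0.05. All 14 myelin and oligodendrocyte markers were expressed, with a summed level of 12421 to 17201 CPM (reads scaled to the effective size of the library). Their log2 fold changes were positive in 14 of 14, where 49.7% of all genes tested were, with a median of 0.21 (0.14 without LAQ 7). Of these, 8 were higher at an unadjusted edgeR p under 0.05, where 4.77% of all genes were. Without LAQ 7, 6 were, where 8.92% of all genes were. In both fits 0 passed the adjusted edgeR threshold. Markers of neurons outside white matter were present too, with 2464 to 3914 CPM for cortical excitatory neurons. Those of striatal projection neurons summed to 1501 to 1973 CPM in control and 544 to 3770.1 CPM in LAQ. The presence of myelin markers therefore does not show how closely the dissection followed the tract. Of the 14 marker sums, that of ependymal cells, which line the ventricles, was the one with no overlap between groups. It stood at 29.4 to 40.8 CPM in control and 47.3 to 62.3 CPM in LAQ. Of its markers 8 of 8 were positive, with a median of 0.65. At an unadjusted edgeR p under 0.05, 6 were higher, where 4.77% of all genes were. The choroid plexus sum was 396 to 2555 CPM in control and 1309 to 3706 CPM in LAQ, with 7 of 7 markers positive and a median of 0.70. The part of these cells in the results below was not tested. In whole tissue, fewer cells of a type and less RNA per cell cannot be told apart.

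Per kilobase of merged exons, the beta subunit Gucy1b3 was the most abundant of the 10 transcripts in control, at 28.3 ± 1.93 CPM per kb (SD, n = 4). Npr2 (13.2 ± 0.901) and Gucy1a3 (13.0 ± 0.658) came next and could not be ordered, because their control libraries overlapped. Nos1 followed at 4.17 ± 0.770 CPM per kb, then Prkg2 at 2.84 ± 0.293, Gucy1a2 at 1.87 ± 0.260 and Pde9a at 1.60 ± 0.291, the last pair overlapping. Prkg1 (0.633 ± 0.160), Pde5a (0.447 ± 0.141) and Npr1 (0.434 ± 0.113 CPM per kb) were lowest, and each overlapped its neighbour in this order. The cyclase subunits Gucy1b3 and Gucy1a3 lay above both kinases per length, and Prkg2 lay above Prkg1 with no overlap between their control libraries. The place of Gucy1a2 depends on its length: on the longest coding transcript in place of all merged exons it stood at 5.55 CPM per kb, above Prkg2 (3.07) and overlapping Nos1 (4.59). On that scale Gucy1a3 (19.2) and Npr2 (16.9 CPM per kb) still overlapped, and Prkg2 overlapped Pde9a (2.71).

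**Figure D1:**
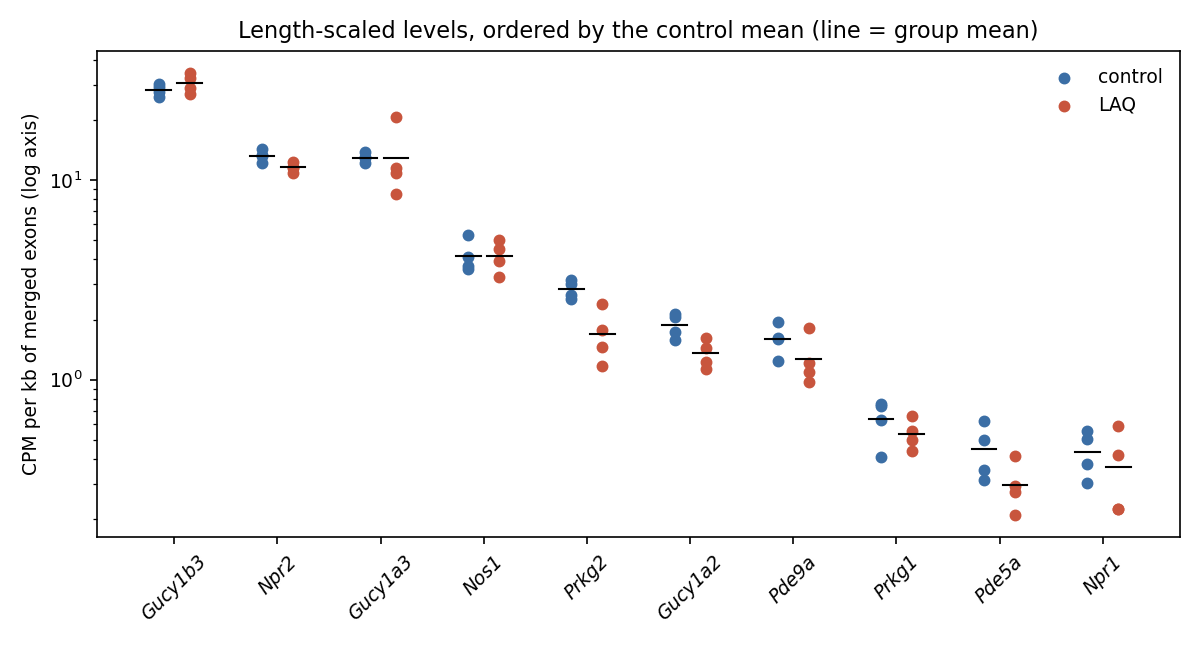
Level of each gene in CPM per kb of merged exons (log axis), with 1 point per library, controls in blue, LAQ in orange and a line at each group mean. Gucy1b3 is highest at 28.3 CPM per kb in control, Npr1 lowest at 0.434, and Prkg2 shows its 4 LAQ libraries under its 4 controls.

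The kinase gene Prkg2 was the only one of the 10 with no overlap between the groups. It stood at 16.2, 14.3, 13.6 and 17.0 CPM in control 1 to 4 and at 6.29, 7.83, 12.8 and 9.57 CPM in LAQ 5 to 8. Every LAQ library lay under every control, LAQ 5 was lowest, and LAQ 7 came closest to the controls. These levels rest on 66 to 205 reads per library and averaged 15.2 ± 1.57 CPM (control) against 9.13 ± 2.82 CPM (LAQ; SD, n = 4 per group). Its estimated log2 difference (LAQ minus control) was -0.74 ± 0.19 (SE), with a 95% confidence interval of -1.16 to -0.31, and Prkg2 ranked 179 of 15771 genes by p (edgeR adjusted p = 0.228). It therefore did not pass the threshold of 0.05 over all genes, and neither did any other gene: edgeR called 0 genes (0%), while 11.1% had an unadjusted p under 0.05. Non-overlap in the lower direction was found in 3.61% of all genes tested. DESeq2 called Prkg2 (log2 fold change -0.73, adjusted p = 0.0495), as it did 0.845% of the genes it adjusted. Without LAQ 7, edgeR called it as well, at -0.96 ± 0.17 (SE) with an adjusted p of 0.0197, when 2.13% of all genes passed. In GRCm38 Prkg2 lies on chromosome 5 from 98929773 to 99037351, on the minus strand. The predicted gene Gm3470 overlaps its span on the same strand, and no gene does on the opposite strand.

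Prkg2 is known from thalamic neurons, and markers of these and other neurons near the tract are given beside it. Of 12 thalamic and habenular markers tested, 12 had a negative log2 fold change, with a median of -0.45 against -0.0012 over all genes. At an unadjusted edgeR p under 0.05, 7 were lower, where 6.33% of all genes were. Without LAQ 7 the median was -0.59, with 8 lower at that level and 4 past the adjusted threshold. In that fit 10.8% of all genes were lower at the unadjusted level and 2.13% passed the adjusted threshold. Their summed level was 573, 412, 416 and 418 CPM in control 1 to 4 and 384, 265, 430.0 and 269 CPM in LAQ 5 to 8. LAQ 6 and 8 were thus low in these markers while LAQ 7 lay inside the control range, and LAQ 5, the library lowest in Prkg2, was near it. Rora had -0.49 ± 0.13 (SE), Rgs16 -0.68 ± 0.19 (SE), Tcf7l2 -0.73 ± 0.23 (SE) and Ntng1 -0.41 ± 0.13 (SE) on the log2 scale. Less precise were Slc17a6 at -0.32 ± 0.28 (SE) and Prkcd at -0.30 ± 0.29 (SE). No marker of the list was at 0 in every library, but Pou4f1, with 0 to 4 reads per library, was not tested. Hippocampal markers had the opposite sign, with 8 of 8 positive and a median of 0.91. At an unadjusted edgeR p under 0.05, 4 were higher, where 4.77% of all genes were. Leaving out LAQ 7, 7 were higher at that level, where 8.92% of all genes were. In that fit 4 passed the adjusted threshold, as 2.13% of all genes did, and the median was 1.20. Their sums of 331, 313, 101 and 175 CPM in LAQ 5 to 8, against 128, 112, 194 and 143 CPM in control 1 to 4, were highest where Prkg2 was lowest. Of the 14 cortical excitatory markers 10 were negative and 4 positive, with a median of -0.15. At an unadjusted edgeR p under 0.05, 4 were lower and 0 higher, where 6.33% and 4.77% of all genes were. Without LAQ 7, 5 were lower and 2 higher at that level, where 10.8% and 8.92% of all genes were. In that fit 4 passed the adjusted threshold, as 2.13% of all genes did. Cux2 had -0.76 ± 0.15 (SE) and Mef2c -0.42 ± 0.096 (SE), both without overlap between groups, as for 3.61% of all genes in that direction. The 4 positive markers were Neurod6 at 0.65 ± 0.37 (SE), Neurod2 at 0.26 ± 0.29, Tle4 at 0.16 ± 0.092 and Fezf2 at 0.026 ± 0.19. With the thalamic score as a covariate Prkg2 had an estimate of -0.58 ± 0.29 (SE), with the hippocampal score -0.52 ± 0.17, and with the cortical score -1.20 ± 0.22, at edgeR adjusted p of 0.950, 0.338 and 0.0538. The direction was negative in each, and which cells carried the difference was not tested.

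The other kinase gene, Prkg1, stood at 6.78, 4.46, 8.24 and 8.03 CPM in control 1 to 4 and at 7.14, 5.40, 4.78 and 6.03 CPM in LAQ 5 to 8. The groups overlapped, with control 2 under all LAQ libraries and control 3 and 4 above them. Prkg1 averaged 6.88 ± 1.74 CPM (control) against 5.84 ± 1.01 CPM (LAQ; SD, n = 4 per group), on 40 to 97 reads per library, with a log2 fold change of -0.24 ± 0.21 (SE), a 95% interval of -0.71 to 0.22 and an edgeR adjusted p of 0.715, or -0.16 ± 0.22 (SE) without LAQ 7. The log2 ratio of Prkg2 to Prkg1 counts within a library was 1.25, 1.67, 0.72 and 1.08 in control and -0.18, 0.53, 1.42 and 0.66 in LAQ. Prkg2 reads outnumbered Prkg1 reads in 7 of 8 libraries, LAQ 5 being the exception. The mean ratio differed by -0.57 (LAQ minus control, log2 scale), but the groups overlapped and the exact two-sided permutation p was 0.200 (adjusted 0.400 over 4 ratios), where 4 against 4 libraries allow no p under 0.0286. A loss particular to Prkg2 over Prkg1 was thus not shown. Prkg1 lies on chromosome 19 from 30564489 to 31765033, on the minus strand, in a span with 3 genes on the opposite strand. Since the strand setting of the count is not given, reads of overlapping exons could not be assigned.

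The 5 genes whose standardized log2 CPM followed Prkg2 most closely over the 8 libraries, among 12840 expressed genes with established symbols, were Cdk19os, Meg3, Rasgef1c, Cartpt and Srrm2. Their root mean square difference from Prkg2 was 0.14 to 0.17 SD. Since likeness was taken over both groups, the fold changes of these genes follow in part from the choice and are a description. Meg3, a maternally expressed long noncoding RNA, stood at 188, 211, 361 and 287 CPM in LAQ 5 to 8 and 364 to 416 CPM in control, the same order of LAQ libraries as in Prkg2. Cartpt, which encodes a neuropeptide, stood at 1.52, 1.80, 4.36 and 3.12 CPM in LAQ 5 to 8 and 4.00 to 6.70 CPM in control. Srrm2, which encodes a splicing-related protein, averaged 422 ± 13.2 CPM (control) against 331 ± 44.4 CPM (LAQ; SD, n = 4 per group), and Rasgef1c 35.6 ± 3.67 CPM (control) against 22.4 ± 6.58 CPM (LAQ; SD, n = 4 per group). Cdk19os has few reads, 9 to 36 per library, and its symbol marks a transcript opposite to Cdk19, so its count is uncertain. Of the other 9 cGMP genes, Gucy1a2 was nearest to Prkg2 by this measure (0.25 SD), with the next at 0.69 (Pde9a) and Prkg1 at 1.26 SD.

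**Figure D2:**
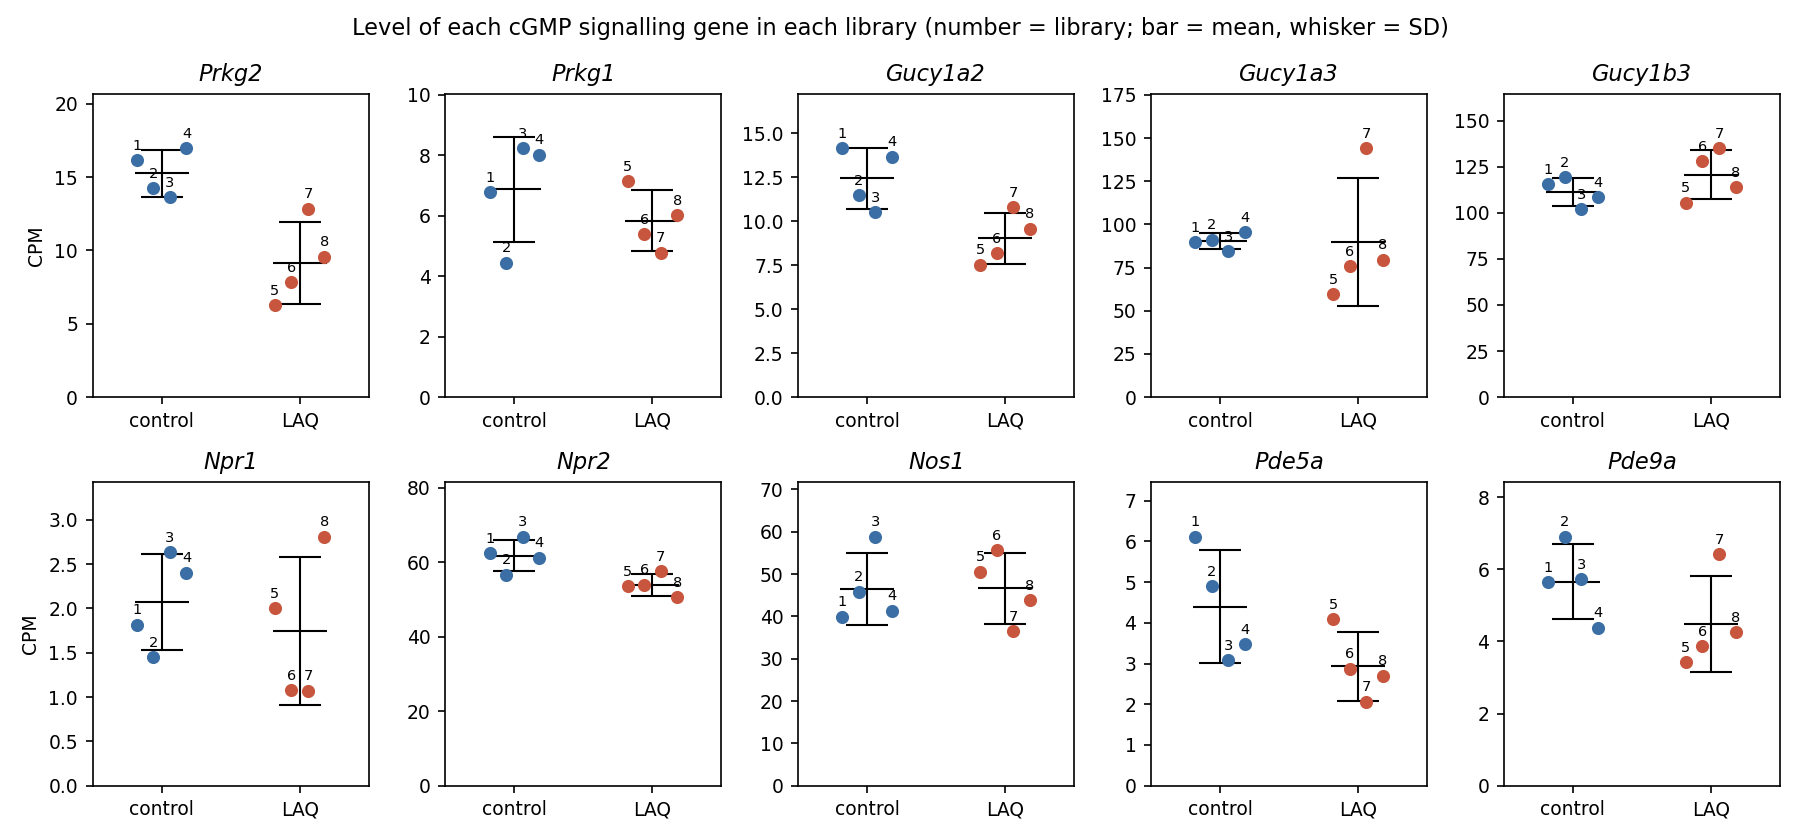
CPM of the 10 genes in each library, with controls in blue and LAQ in orange, the library number over each point, a bar at the mean and whiskers of 1 SD (n = 4). Prkg2 in LAQ runs from 6.29 to 12.8 CPM, under the lowest control at 13.6, and Gucy1a3 shows LAQ 7 at 144 CPM, above all others.

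The soluble cyclase subunits differed in their pattern over the libraries. Gucy1a2, the alpha 2 subunit, stood at 14.1, 11.5, 10.5 and 13.7 CPM in control 1 to 4 and at 7.53, 8.19, 10.8 and 9.57 CPM in LAQ 5 to 8. LAQ 5, 6 and 8 lay under all controls, and LAQ 7 lay just above the lowest of them, control 3. Gucy1a2 averaged 12.4 ± 1.73 CPM (control) against 9.02 ± 1.46 CPM (LAQ; SD, n = 4 per group), a log2 fold change of -0.47 ± 0.16 (SE) with a 95% interval of -0.81 to -0.13 (edgeR adjusted p = 0.321). Without LAQ 7 it stood at -0.57 ± 0.16 (SE) with an edgeR adjusted p of 0.0817. The groups no longer overlapped there, as for 8.68% of all genes in that direction. It lies on chromosome 9 from 3532778 to 3894736, on the plus strand.

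Gucy1a3, the alpha 1 subunit (Gucy1a1 in the current nomenclature), stood at 89.6, 91.1, 84.5 and 95.7 CPM in control 1 to 4 and at 59.5, 75.9, 144 and 79.5 CPM in LAQ 5 to 8. The group means were nearly equal, at 90.2 ± 4.58 CPM (control) against 89.8 ± 37.3 CPM (LAQ; SD, n = 4 per group), yet no LAQ library lay inside the control range: LAQ 5, 6 and 8 were under it and LAQ 7 far above it. The spread between LAQ libraries was 41.5% of their mean, against 5.08% in control, where counting alone gives about 3.17% and 3.31%. The log2 fold change was -0.0051 ± 0.21 (SE), with a 95% interval of -0.46 to 0.45 and an edgeR adjusted p of 0.999. Without LAQ 7 it was -0.33 ± 0.10 (SE), with a 95% interval of -0.54 to -0.13 and an edgeR adjusted p of 0.0839. The estimate therefore turned on 1 library.

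Gucy1a3 was high or low in the libraries that were highest or lowest in striatal markers. The summed level of 10 markers of striatal projection neurons was 1973, 1962, 1501 and 1842 CPM in control 1 to 4 and 544, 1512, 3770.1 and 1999 CPM in LAQ 5 to 8. LAQ 7 was highest and LAQ 5 lowest in both the striatal sum and Gucy1a3. LAQ 6, inside the control range of the sum, and LAQ 8, just above it, both had Gucy1a3 levels under the controls. In LAQ 7 the receptor gene Drd1a stood at 194 CPM and Penk (proenkephalin) at 1107 CPM, and in LAQ 5 at 30.3 and 121 CPM. Over all 8 libraries 8 of 10 striatal markers had a positive log2 fold change (median 0.11), and without LAQ 7, 10 of 10 were negative (median -0.50). In that fit only 1 was lower at an unadjusted edgeR p under 0.05, where 10.8% of all genes were. Past the adjusted threshold there were 0, and 0 were without overlap between groups. With the striatal score as a covariate, a fit chosen after the data were seen, Gucy1a3 stood at 0.018 ± 0.095 (SE) and Prkg2 at -0.71 ± 0.13, the latter with an edgeR adjusted p of 0.0477. The part that striatal cells have in these values was not tested.

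**Figure D3:**
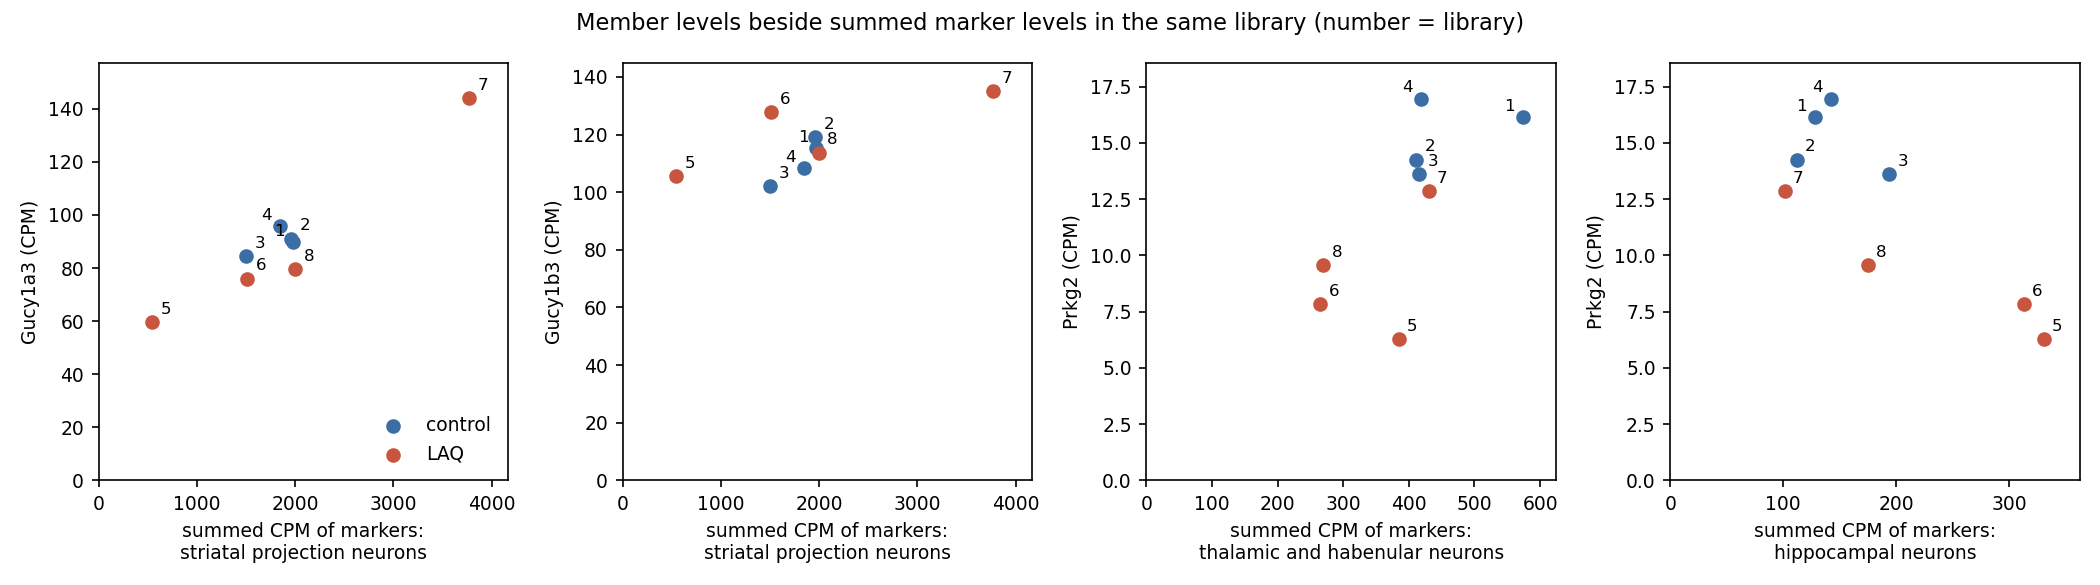
CPM of Gucy1a3, Gucy1b3 and Prkg2 (vertical axes) against the summed CPM of a marker list in the same library (horizontal axes), with controls in blue, LAQ in orange and library numbers beside the points. LAQ 7 has the highest striatal sum (3770.1 CPM) with the highest Gucy1a3, and LAQ 5 and 6 have the highest hippocampal sums (331 and 313 CPM) with the lowest Prkg2.

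Gucy1b3, the beta 1 subunit shared by both heterodimers (Gucy1b1 in the current nomenclature), stood at 115, 119, 102 and 108 CPM in control 1 to 4 and at 106, 128, 135 and 114 CPM in LAQ 5 to 8. The groups overlapped, and the LAQ mean was the higher one, at 111 ± 7.58 CPM (control) against 121 ± 13.3 CPM (LAQ; SD, n = 4 per group). The log2 fold change was 0.12 ± 0.088 (SE), with a 95% interval of -0.075 to 0.31 and an edgeR adjusted p of 0.654, so that a fall of the size seen in Prkg2 lies outside the interval. Without LAQ 7 it was 0.057 ± 0.082 (SE). The log2 ratio of Gucy1a3 to Gucy1b3 counts was -0.36, -0.39, -0.27 and -0.18 in control 1 to 4 and -0.83, -0.75, 0.095 and -0.52 in LAQ 5 to 8. LAQ 5, 6 and 8 thus held fewer alpha 1 reads per beta 1 read than any control, and LAQ 7 more than any control. This ratio was chosen after its values were seen and has no test. The alpha subunits were also compared with each other: the log2 ratio of Gucy1a2 to Gucy1a3 was -2.66, -2.98, -3.00 and -2.80 in control and -2.98, -3.21, -3.73 and -3.05 in LAQ. It was lowest in LAQ 7 and overlapped between groups, with a mean difference of -0.38 (exact two-sided permutation p = 0.0857, adjusted 0.343 over 4 ratios). Without LAQ 5 the difference was -0.47 (exact permutation p = 0.0286, unadjusted, the smallest that 3 libraries against 4 can give), and without LAQ 7 -0.22 (exact permutation p = 0.171).

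Gucy1a3 and Gucy1b3 are neighbours in the genome. In GRCm38 Gucy1b3 lies on chromosome 3 from 82032006 to 82074689 and Gucy1a3 on chromosome 3 from 82092427 to 82145789, both on the minus strand, with 17737 bases between them. Neither has an overlapping gene on the opposite strand, and the microRNA gene Mir7010 lies within Gucy1a3 on the same strand. The windows of RefSeq (GRCm38.p6) from 250 bases before to 50 after their annotated starts are shown because the pair differed between libraries. Capitals mark GCGTG or its reverse complement CACGC, the core sequence bound by the aryl hydrocarbon receptor, a receptor that laquinimod is reported to act through.
Gucy1a3, upstream start, chr3:82145601-82145900, minus strand: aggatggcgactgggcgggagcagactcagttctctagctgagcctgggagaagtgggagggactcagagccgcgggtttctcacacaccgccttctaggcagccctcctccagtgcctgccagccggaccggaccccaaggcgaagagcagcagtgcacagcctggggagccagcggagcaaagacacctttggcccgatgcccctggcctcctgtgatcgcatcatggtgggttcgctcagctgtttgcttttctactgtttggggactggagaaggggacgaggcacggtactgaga
Gucy1a3, downstream start, chr3:82145024-82145323, minus strand: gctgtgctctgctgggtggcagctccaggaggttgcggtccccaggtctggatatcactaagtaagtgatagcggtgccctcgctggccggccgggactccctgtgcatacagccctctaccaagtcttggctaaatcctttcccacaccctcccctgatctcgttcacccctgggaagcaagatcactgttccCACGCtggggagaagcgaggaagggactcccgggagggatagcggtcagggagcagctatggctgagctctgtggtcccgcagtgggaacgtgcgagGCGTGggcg
Gucy1b3, chr3:82074662-82074961, minus strand: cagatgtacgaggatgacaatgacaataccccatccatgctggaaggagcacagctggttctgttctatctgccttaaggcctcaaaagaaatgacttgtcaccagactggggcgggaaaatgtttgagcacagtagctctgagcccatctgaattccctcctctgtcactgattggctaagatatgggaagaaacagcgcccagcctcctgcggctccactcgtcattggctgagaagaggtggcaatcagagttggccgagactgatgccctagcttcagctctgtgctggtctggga
The downstream Gucy1a3 window held 2 matches, and the other Gucy1a3 window and the Gucy1b3 window held 0. Over the members, windows were at hand for 8 genes (10 windows), of which 2, Gucy1a3 and Npr1, held the motif in at least 1 window. Prkg2 and Pde9a had no entry. Of all 32851 windows of this length, 32.4% held it on either strand. A match is a description of the letters, and no match says only that these letters are not in the window.

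The receptor cyclases differed in level and precision. Npr2, the receptor for C-type natriuretic peptide, stood at 62.4, 56.6, 66.8 and 61.2 CPM in control 1 to 4 and at 53.5, 54.0, 57.6 and 50.5 CPM in LAQ 5 to 8. LAQ 5, 6 and 8 lay under all controls, and LAQ 7 lay just above control 2. Npr2 averaged 61.8 ± 4.20 CPM (control) against 53.9 ± 2.88 CPM (LAQ; SD, n = 4 per group), a log2 fold change of -0.20 ± 0.075 (SE) with a 95% interval of -0.36 to -0.031 (edgeR adjusted p = 0.383). This was a small difference in a gene of narrow spread, with SDs of 6.81% and 5.35% of the means. Without LAQ 7 it was -0.23 ± 0.079 (SE) with an adjusted p of 0.135. Npr2 lies on chromosome 4 from 43631935 to 43651244, on the plus strand, and a gene on the opposite strand overlaps its span.

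Npr1, the receptor for atrial and B-type natriuretic peptides, stood at 1.82, 1.45, 2.63 and 2.40 CPM in control 1 to 4 and at 2.00, 1.08, 1.07 and 2.81 CPM in LAQ 5 to 8. With only 12 to 29 reads per library, counting alone gives a spread of 21.8% to 23.4% of the mean. Its log2 fold change of -0.28 ± 0.36 (SE) had a 95% interval of -1.05 to 0.50 (edgeR adjusted p = 0.818). No difference was detected at this depth, and the interval is wide. Single libraries moved the estimate, to -0.10 ± 0.36 (SE) without LAQ 7 and -0.59 without LAQ 8. The ratio of Npr1 to Npr2 overlapped between groups (mean log2 difference -0.14, exact two-sided permutation p = 0.714, adjusted 0.714 over 4 ratios), and its sign turned without LAQ 7 (0.083) or LAQ 6 (0.047). Npr1 lies on chromosome 3 from 90450591 to 90465866, on the minus strand, also with an overlapping gene opposite.

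Nos1, which encodes the neuronal nitric oxide synthase, stood at 39.9, 45.8, 58.8 and 41.4 CPM in control 1 to 4 and at 50.6, 55.6, 36.5 and 43.8 CPM in LAQ 5 to 8. The groups overlapped throughout, control 3 being highest and LAQ 7 lowest. The means were 46.5 ± 8.59 CPM (control) against 46.6 ± 8.31 CPM (LAQ; SD, n = 4 per group), and the log2 fold change was 0.0069 ± 0.15 (SE) with a 95% interval of -0.31 to 0.32 and an edgeR adjusted p of 0.993, or 0.11 ± 0.13 (SE) without LAQ 7. LAQ 7, highest in the cyclase subunit Gucy1a3, was thus lowest in the synthase. Nos1 is known from a class of GABAergic interneurons, and of the markers of such cells 7 of 10 had a negative log2 fold change (median -0.087, or -0.20 without LAQ 7), and their summed level was 1542 to 1785 CPM in control and 1439 to 1910.1 CPM in LAQ. The neuropeptide genes Npy, Sst and Vip had -0.33 ± 0.089 (SE), -0.28 ± 0.11 (SE) and -0.40 ± 0.17 (SE), none past the adjusted edgeR threshold. Chodl, a marker of the Nos1-rich class, had 0.062 ± 0.33 (SE), and Gad1 and Gad2, which make GABA, had 0.24 ± 0.13 (SE) and 0.12 ± 0.18 (SE). Nos1 lies on chromosome 5 from 117781032 to 117958840, on the plus strand, and has an overlapping gene on each strand.

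The phosphodiesterase genes Pde5a and Pde9a were among the lower transcripts. Pde5a, whose enzyme is known from vascular smooth muscle, stood at 6.12, 4.90, 3.09 and 3.48 CPM in control 1 to 4 and at 4.10, 2.88, 2.06 and 2.70 CPM in LAQ 5 to 8. LAQ 6, 7 and 8 lay under all controls and LAQ 5 lay among them. It averaged 4.40 ± 1.39 CPM (control) against 2.93 ± 0.851 CPM (LAQ; SD, n = 4 per group) on 25 to 64 reads per library, a log2 fold change of -0.59 ± 0.28 (SE) with a 95% interval of -1.20 to 0.023 (edgeR adjusted p = 0.458). Here LAQ 7 was lowest, and without it the log2 fold change was -0.44 ± 0.28 (SE). Of the mural cell markers 10 of 12 had a negative log2 fold change, with a median of -0.30, and 0 had an unadjusted edgeR p under 0.05. Leaving out LAQ 7, 12 of 12 were negative, with a median of -0.44, 6 at that level and 0 past the adjusted threshold. In that fit 10.8% of all genes were lower at that level. Endothelial markers were negative in 11 of 11 (median -0.27, or -0.44 without LAQ 7). The mural sums were 280.1, 323, 312 and 366 CPM in control 1 to 4 and 227, 174, 371 and 302 CPM in LAQ 5 to 8, lowest in LAQ 6 and highest in LAQ 7, an order that Pde5a did not share. With the mural score as a covariate Pde5a stood at -0.78 ± 0.29 (SE; edgeR adjusted p = 0.378). In that fit Prkg1, also known from smooth muscle, stood at -0.29 ± 0.24 (edgeR adjusted p = 0.733). Pde5a was -0.20 ± 0.41 with the thalamic score and -0.27 ± 0.38 with the cortical score. It was -0.75 with the interneuron, -0.71 with the hippocampal and -0.69 with the striatal score. The part of mural cells in these values was not tested. Pde5a lies on chromosome 3 from 122728947 to 122859374, on the plus strand, with 2 genes opposite.

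Pde9a, whose enzyme is selective for cGMP and known from neurons, stood at 5.64, 6.91, 5.72 and 4.39 CPM in control 1 to 4 and at 3.43, 3.87, 6.42 and 4.26 CPM in LAQ 5 to 8. LAQ 5, 6 and 8 lay under all controls, and LAQ 7 was exceeded by control 2 alone. Pde9a averaged 5.66 ± 1.03 CPM (control) against 4.50 ± 1.33 CPM (LAQ; SD, n = 4 per group), a log2 fold change of -0.32 ± 0.23 (SE; 95% interval -0.82 to 0.19, edgeR adjusted p = 0.642). Without LAQ 7 it was -0.55 ± 0.22 (SE; edgeR adjusted p = 0.187). LAQ 7 was thus the lowest LAQ library in Pde5a and the highest in Pde9a, and the log2 ratio of Pde5a to Pde9a, 0.25, -0.42, -1.62 and -0.65 in LAQ 5 to 8 against 0.12, -0.49, -0.88 and -0.33 in control, varied more among LAQ libraries than it differed between groups (mean difference -0.21, exact two-sided permutation p = 0.657, adjusted 0.714 over 4 ratios). Its sign turned without LAQ 7 (0.12). Pde9a lies on chromosome 17 from 31386210 to 31476310, on the plus strand, with 2 genes opposite.

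Across the 10 genes, 8 had a negative log2 fold change, where 50.3% of all genes tested did, and their median was -0.26. By edgeR 0 of 10 passed the adjusted threshold, and DESeq2 called 1 (Prkg2). At an unadjusted edgeR p under 0.05, 3 (Prkg2, Gucy1a2 and Npr2) were lower and 0 higher, where 6.33% of all genes were lower and 4.77% higher. Without LAQ 7, 5 were lower at that level (Gucy1a3 and Pde9a in addition), where 10.8% of all genes were, and these 5 did not overlap between the groups, as 8.68% of all genes did not in that direction. Only Prkg2 passed the adjusted edgeR threshold there. Since the list was drawn up around Prkg2 with earlier results of these libraries known, its counts are a description and no evidence of a direction. The members share the libraries and are not independent of each other.

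**Figure D4:**
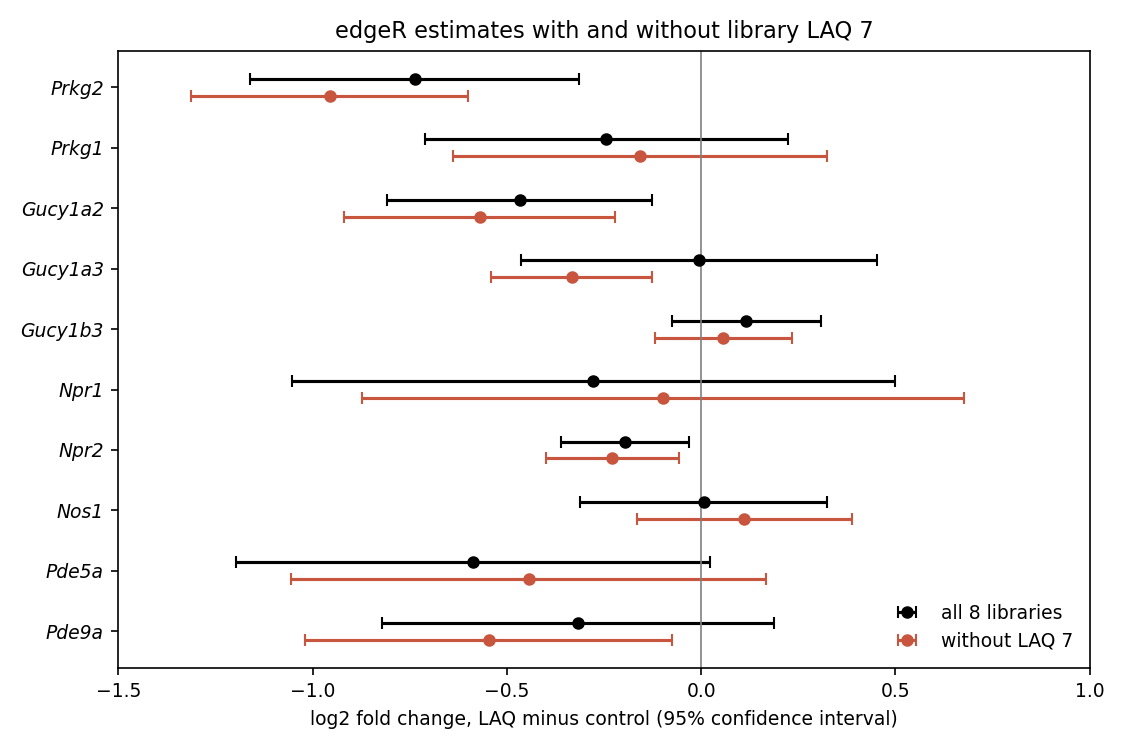
Log2 fold change (LAQ minus control) of each gene by edgeR, with 95% confidence intervals, from all 8 libraries (black) and without LAQ 7 (orange). Gucy1a3 moves from -0.0051 to -0.33 when LAQ 7 is left out, and Prkg2 from -0.74 to -0.96.

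The rest of the pathway showed no common direction. Of 53 further genes of cGMP synthesis, breakdown, gating and kinase targets, 34 passed the expression filter, 17 with a negative and 17 with a positive log2 fold change and a median of -0.0047. By edgeR 0 passed the adjusted threshold, and DESeq2 called 0. At an unadjusted edgeR p under 0.05 2 were lower and 1 higher, where 6.33% and 4.77% of all genes were. Without LAQ 7, 6 were lower (Itpr1, Abcc5, Mrvi1, Gch1, Pde10a and Ddah1) and 2 higher (Ppp1r17 and Spr), where 10.8% and 8.92% of all genes were, and 1 (Itpr1) passed the adjusted threshold. Of the 11 other synthesis genes only 4 were expressed enough to test, and the peptide genes Nppa and Nppb were not among them. The peptide gene Nppc, which encodes the ligand of Npr2, stood at 2.79 ± 0.375 CPM (control) against 2.95 ± 0.823 CPM (LAQ; SD, n = 4 per group), with a log2 fold change of 0.085 ± 0.25 (SE), or 0.24 ± 0.25 (SE) without LAQ 7. The clearance receptor Npr3 averaged 8.85 ± 1.97 CPM (control) against 7.61 ± 2.05 CPM (LAQ; SD, n = 4 per group), with -0.22 ± 0.23 (SE), or -0.036 ± 0.19 (SE) without LAQ 7. Inducible Nos2 had at most 7 reads in a library, and the endothelial synthase gene Nos3 had -0.11 ± 0.17 (SE) on the log2 scale, or -0.26 ± 0.16 (SE) without LAQ 7. Of the genes of nitric oxide synthesis and its cofactors 4 of 8 were negative. Gch1 and Spr, which act at the start and the end of tetrahydrobiopterin synthesis, had log2 fold changes of -0.58 ± 0.36 (SE) and 0.17 ± 0.11 (SE; edgeR adjusted p = 0.568 and 0.563). Without LAQ 7 they were -0.96 ± 0.33 (SE) and 0.25 ± 0.10 (SE; edgeR adjusted p = 0.135 and 0.174). The groups did not overlap for Spr there, as for 7.88% of all genes in that direction.

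The other genes of cGMP breakdown and export lay on both sides of 0. Of 11 tested, 6 were negative and 5 positive, with a median log2 fold change of -0.025, and 0 had an unadjusted edgeR p under 0.05. Pde2a, a cGMP-stimulated phosphodiesterase, averaged 733 ± 47.8 CPM (control) against 720.2 ± 140.2 CPM (LAQ; SD, n = 4 per group), and Pde1b 363 ± 38.5 CPM (control) against 382 ± 214 CPM (LAQ; SD, n = 4 per group). Both rest on LAQ 7: the log2 fold change of Pde2a was -0.025 ± 0.12 (SE) with it and -0.15 ± 0.088 (SE) without it, and that of Pde1b 0.078 ± 0.30 (SE) and -0.35 ± 0.19 (SE). Pde10a, a phosphodiesterase of striatal neurons, stood at 118, 239, 644 and 273 CPM in LAQ 5 to 8 and at 299.6, 326, 251 and 318 CPM in control 1 to 4. As with Gucy1a3, LAQ 7 was highest and LAQ 5 lowest. Its log2 fold change was 0.094 ± 0.37 (SE) with all libraries and -0.51 ± 0.20 (SE) without LAQ 7. Abcc5, a cGMP exporter, had the smallest p of this group, at -0.16 ± 0.088 (SE; edgeR adjusted p = 0.524). Without LAQ 7 it was -0.25 ± 0.066 (SE; edgeR adjusted p = 0.0696) with no overlap between groups, as for 8.68% of all genes in that direction. Pde3a, whose enzyme is inhibited by cGMP, averaged 8.66 ± 1.55 CPM (control) against 10.5 ± 1.09 CPM (LAQ; SD, n = 4 per group), at 0.27 ± 0.16 (SE; edgeR adjusted p = 0.550). Of 6 genes of cGMP-gated channels 1 was tested, Cnga4, with at most 19 reads in a library.

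Among 10 targets and partners of the kinases, Ppp1r17 had the smallest p. Ppp1r17 encodes a phosphatase inhibitor that cGMP kinase phosphorylates, and it stood at 1.82, 0.446, 0.801 and 1.08 CPM in control 1 to 4 and at 2.38, 2.97, 1.65 and 2.81 CPM in LAQ 5 to 8. It rested on 4 to 33 reads per library, LAQ 7 lay under the highest control, and its log2 fold change was 1.20 ± 0.37 (SE; edgeR adjusted p = 0.279). Leaving out LAQ 7 gave 1.35 ± 0.38 (SE; edgeR adjusted p = 0.0793) with no overlap between groups, as for 7.88% of all genes in that direction. Mrvi1, which ties Prkg1 to the inositol trisphosphate receptor, stood at 6.12, 4.12, 2.75 and 4.55 CPM in control 1 to 4 and at 2.00, 0.720, 3.87 and 2.91 CPM in LAQ 5 to 8. LAQ 6, lowest in the mural sum, was lowest here too. The log2 fold change of Mrvi1 was -0.88 ± 0.40 (SE; edgeR adjusted p = 0.442), or -1.25 ± 0.39 (SE; edgeR adjusted p = 0.101) without LAQ 7. Kcnma1, a calcium-activated potassium channel, was lower in every LAQ library (115 to 127 CPM) than in any control (129 to 136 CPM). So were 3.61% of all genes tested. The difference was small, at -0.14 ± 0.061 (SE) on the log2 scale (edgeR adjusted p = 0.431), or -0.12 ± 0.063 (SE; edgeR adjusted p = 0.308) without LAQ 7. The inositol trisphosphate receptor gene Itpr1 stood at 263, 359, 452 and 255 CPM in LAQ 5 to 8 and 371 to 448 CPM in control, LAQ 7 above all controls and the other LAQ libraries under them. Its log2 fold change was -0.31 ± 0.16 (SE; edgeR adjusted p = 0.491). Without LAQ 7 it was -0.49 ± 0.11 (SE; edgeR adjusted p = 0.0410), when 2.13% of all genes passed. Vasp, a widely used readout of kinase activity at the protein level, had a log2 fold change of 0.032 ± 0.16 (SE), or -0.033 ± 0.17 (SE) without LAQ 7.

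**Figure D5:**
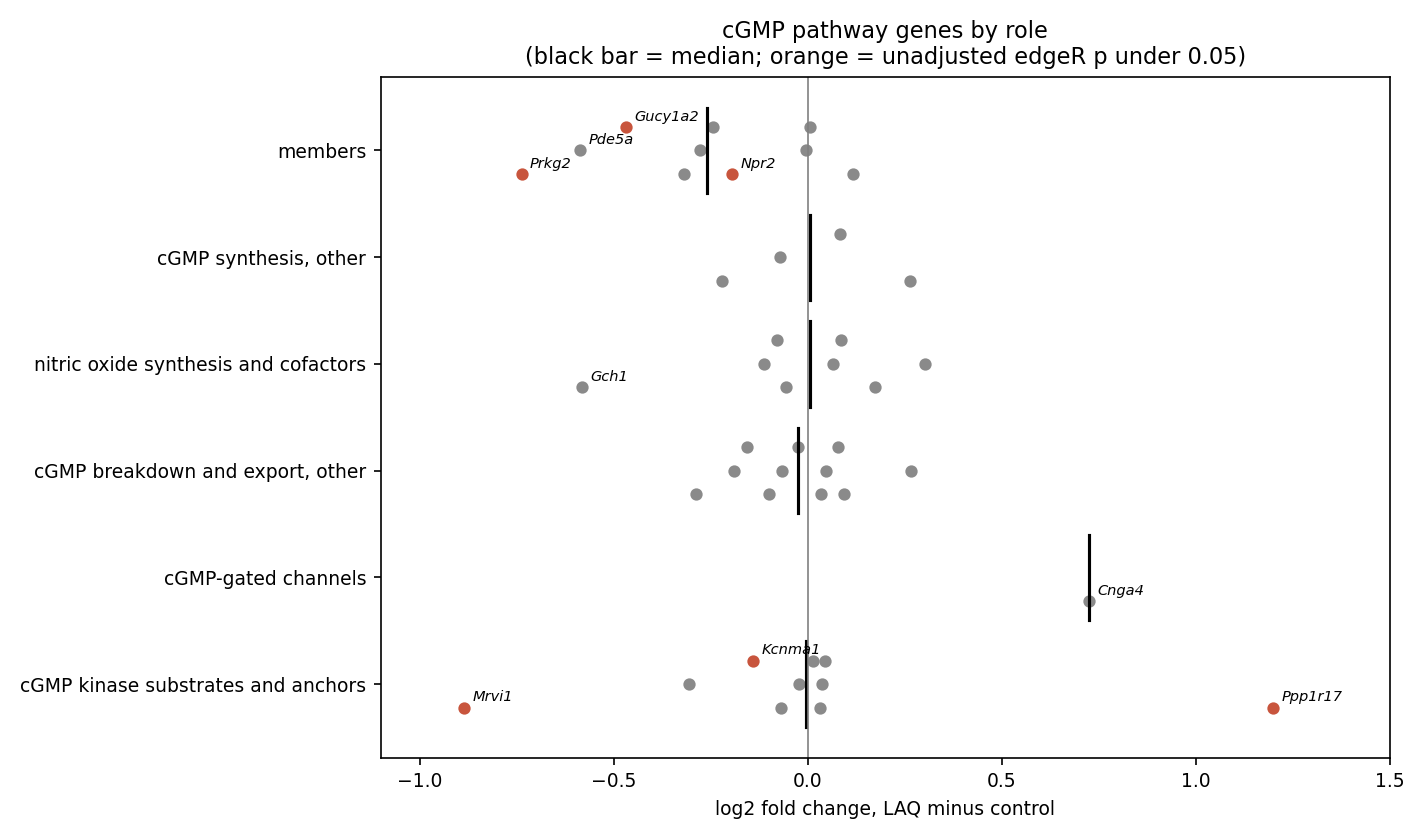
Log2 fold change (LAQ minus control) of the 10 genes (members, top row) and of 34 other tested cGMP pathway genes grouped by role, with a black bar at each group's median and orange points for an unadjusted edgeR p under 0.05. The members have a median of -0.26, while the groups of other genes with more than 1 member have medians between -0.025 and 0.0061.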

How the data were processed

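The authors deposited whole-number read counts by gene symbol, with a column for each library. Their other deposited table is a normalized signal: the same counts divided by 1 size factor per library (largest relative deviation 5.1e-15), and served only for that check. Per the submitters' processing notes, the tools were STAR 2.5.2b, bcl2fastq 2.17.1.14, DESeq2 1.10.1 and HTSeq, with GRCm38.p3. The annotation release, strand setting and read filters are not given in the sources used here. Groups came from the sample titles, and the labels give no batch.

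Genes were kept by edgeR's filterByExpr (minimum count 10, minimum total 15), which left 15771. TMM scaling was applied, and the groups were compared with the quasi-likelihood test of edgeR over all 8 libraries, two-sided, with Benjamini-Hochberg adjustment over all genes tested and a threshold of 0.05 (edgeR 4.0.16, limma 3.58.1, DESeq2 1.42.0, R 4.3.3). The SE is the log2 fold change divided by the square root of F, and 95% intervals use the test's degrees of freedom. Log2 CPM for scores used a prior count of 2, and a marker score is the mean standardized log2 CPM of a list. Ratios used counts plus 0.5. The steps were tested on simulated data. The alternatives were other scalings, filters, tests and a threshold of 0.1, marker scores as covariates, and each library left out. The members and lists were chosen with earlier results of these data known. All 10 members are named, as are up to 3 other pathway genes per direction by p; further pathway genes (Nppc, Npr3, Nos3, Gch1, Pde2a, Pde1b, Pde10a, Abcc5, Cnga4, Ddah1, Vasp) and marker genes were picked for their roles or after their values were seen. The table held 202 of 205 listed symbols, and 2 more by an older name. Gene spans and exon lengths came from GENCODE M21 (GRCm38). No 2 libraries of a group agreed within sampling noise, which by itself does not show that each is 1 mouse. Each was counted as 1 sample because of the design text. Intervals from read numbers cover counting error only.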

Additional observations from a re-analysis of the deposited data

How the results depend on the processing

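The count of genes past the edgeR threshold was 0 with all libraries under TMM, and also with median-of-ratios scaling, library size alone, a filter of 1 CPM in 4 libraries, voom, robust estimation, a threshold of 0.1, and the thalamic, mural, interneuron or hippocampal score as covariate. It was 25 with no filter, 129 with DESeq2, 15 with the cortical score and 34 with the striatal score, and it ran from 0 to 339 when each library was left out, the highest without LAQ 7 and 0 without each other library. Of the 10 members, 0 passed except for 1 (Prkg2) with DESeq2, 1 (Prkg2) with the striatal score, and 0 to 1 when each library was left out (Prkg2, without LAQ 7). The other pathway genes past the threshold numbered 0 under every alternative except without LAQ 7, where 1 (Itpr1) passed. Prkg2 was negative under all 22 alternatives (-1.20 to -0.52, adjusted p 0.0197 to 0.950), as were Prkg1, Gucy1a2, Npr1, Npr2, Pde5a and Pde9a, while Gucy1b3 was positive under all. Gucy1a3 and Nos1, whose estimates from all libraries lie near 0, changed sign. Gucy1a3 was 0.0074 with no filter, 0.24 with the thalamic, 0.16 with the mural, 0.24 with the interneuron, 0.018 with the striatal and 0.26 with the hippocampal score, but -0.49 with the cortical score, and -0.33 to 0.15 with each library left out. Nos1 was -0.25, -0.14, -0.15, -0.041 and -0.21 with the first 5 of these scores in that order, but 0.29 with the cortical score, and -0.089 to 0.14 with each library left out. The cause of these changes was not tested. The striatal and hippocampal scores were chosen after seeing the data. The log2 ratios with each library left out ran -0.84 to -0.31 for Prkg2 to Prkg1, -0.47 to -0.22 for Gucy1a2 to Gucy1a3, -0.43 to 0.083 for Npr1 to Npr2, -0.50 to 0.12 for Pde5a to Pde9a and -0.40 to -0.090 for Gucy1a3 to Gucy1b3. With a library left out, the exact permutation test of the absolute mean difference gave p of 0.0286 to 0.943 over the first 4 ratios, the lowest being Gucy1a2 to Gucy1a3 without LAQ 5 and the smallest that 3 libraries against 4 can give. That statistic was chosen after seeing the data. No paired analysis was possible because the groups share no replicate number. Depth limits Npr1, Pde5a, Pde9a and Prkg1 most, each under 100 reads in every library.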
